A study of Mus musculus with 2 samples.

Results

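The Mir379-Mir410 cluster is a row of microRNA (miRNA) genes in the imprinted Dlk1-Dio3 domain on mouse chromosome 12. The members described here are the miRNA genes of GENCODE M21 that start between 109700000 and 109760000 on chromosome 12 of the mm10 genome, on either strand, except Mir134, Mir485, Mir329, Mir381 and Mir495. That rule gave 39 genes of the 44 in the window and of the 2202 miRNA genes annotated in all. The rule uses position and those 5 names, and no measured value. Of the members, 34 lie on the plus strand and 5 on the minus strand.

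Small RNA was sequenced from hippocampus of male B6CASTF1/J mice, the F1 hybrid of the C57BL/6 and CAST/Ei backgrounds, at an age of 18 to 20 months. The study has 1 group of 2 libraries, replicate 1 and replicate 2, which share strain, sex, age and tissue and carry no stated treatment or allele beyond the hybrid background. Both have a tissue entry of their own and name the same donor entry, and no label states that they came from separate animals, so differences between the libraries may be technical, and the p-values below set these samples against counting error only. The files hold 3758318 sense-strand counts on miRNA genes in replicate 1 and 5598792 in replicate 2. Genes used as a check of the tissue had the order of a brain sample. The neuronal list (8 of 12 genes detected) summed to 49326 and 50058 counts per 1000000 sense counts (CPM) in replicates 1 and 2, while liver Mir122 had 23.9 and 47.5 CPM. The muscle list (1 of 5 detected) summed to 52.2 and 79.7 CPM, all from Mir206, since the other 4 genes had no count. Those 4 are numbered copies of each other in pairs, and a read that fits several places is in no gene's count. Their lack of counts therefore does not show absence, and the check rests on the neuronal list, Mir122 and Mir206. The neuronal list also holds numbered copies, and it had 1 gene without a count, Mir124a-3.

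A miRNA gene is transcribed into a hairpin, from which a short duplex is cut, and a strand of that duplex then guides the silencing of messenger RNAs. Target choice rests largely on the seed, bases 2 to 8 of the mature miRNA, so miRNAs with the same seed can share targets. The Mir379-Mir410 genes are expressed from the maternal chromosome as parts of long non-coding transcripts, among them Mirg, and many of their hairpins are related in sequence. The cluster is known for its activity in neurons and placenta, for induction by the activity-dependent factor Mef2 in neurons, and for roles in dendrite growth. Mature sequences named 5p and 3p come from the 5′ and 3′ arms of a hairpin. The deposited counts are per gene and do not tell the arms apart.

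RefSeq (GRCm38.p6) held entries for 34 of the 39 members, with 64 mature sequences and 57 distinct seeds. All 64 lie inside the GENCODE gene of the same name. The sequences below are written 5′ to 3′ with the seed in capitals. The first set shows the genes with the most reads, which carry most of the signal of the cluster.
miR-411-5p: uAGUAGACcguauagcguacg
miR-411-3p: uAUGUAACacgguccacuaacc
miR-379-5p: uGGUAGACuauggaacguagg
miR-379-3p: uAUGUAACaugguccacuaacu
miR-382-5p: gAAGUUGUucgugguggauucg
miR-382-3p: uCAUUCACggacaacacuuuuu
miR-487b-5p: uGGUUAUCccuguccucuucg
miR-541-5p: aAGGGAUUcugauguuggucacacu
miR-541-3p: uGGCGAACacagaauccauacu
miR-369-5p: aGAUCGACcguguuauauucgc
miR-369-3p: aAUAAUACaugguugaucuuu
miR-409-5p: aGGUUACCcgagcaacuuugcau
miR-409-3p: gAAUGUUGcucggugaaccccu
miR-154-5p: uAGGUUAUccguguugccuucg
miR-154-3p: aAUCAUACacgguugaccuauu
miR-323-3p: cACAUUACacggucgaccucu

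The next set holds the mir-376 genes and the other members with the widest differences between the libraries: Mir380, Mir377 and Mir539 among those with at least 100 counts in each, and Mir544 with fewer.
miR-376a-5p: gGUAGAUUcuccuucuaugagu
miR-376a-3p: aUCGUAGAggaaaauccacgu
miR-376b-5p: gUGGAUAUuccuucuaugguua
miR-376b-3p: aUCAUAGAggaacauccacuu
miR-376c-5p: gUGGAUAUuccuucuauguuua
miR-380-5p: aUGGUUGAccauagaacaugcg
miR-380-3p: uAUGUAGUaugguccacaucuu
miR-377-3p: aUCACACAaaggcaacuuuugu
miR-539-5p: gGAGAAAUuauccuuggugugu
miR-544-5p: uCUUGUUAaaaagcagagucu
miR-544-3p: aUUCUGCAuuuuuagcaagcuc

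The last set shows further members that share a seed, whose levels are set side by side below.
miR-1193-5p: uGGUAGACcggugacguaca
miR-758-5p: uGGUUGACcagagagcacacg
miR-1197-5p: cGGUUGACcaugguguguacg
miR-496a-5p: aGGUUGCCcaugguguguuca
miR-453: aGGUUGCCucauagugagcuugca
miR-494-5p: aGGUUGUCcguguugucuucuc
miR-410-5p: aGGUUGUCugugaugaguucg
miR-299a-3p: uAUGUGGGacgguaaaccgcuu
miR-299b-3p: uAUGUGGGacgguaaacc

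Among the arms that the table lists, shared seeds joined 7 pairs of members; 3p sequences of Mir376c, Mir487b and Mir539 were not analysed here. The 3p miRNAs of the neighbours Mir379 and Mir411 have the seed AUGUAAC, and their 5p seeds differ by G2A, with positions counted from 1 at the 5′ end of the mature miRNA and miR-379-5p given first. The miR-379-5p seed GGUAGAC returns in miR-1193-5p. Within the mir-376 genes, miR-376b-5p and miR-376c-5p have the same seed UGGAUAU, while the 3p seeds of Mir376b and Mir376a differ by A4G with Mir376b given first. The 3p seeds of Mir154 and Mir369 differ by C4A with Mir154 given first. None of the 64 was found whole in an annotated hairpin at another place, and the longest stretch shared with another place was 18 nt, between miR-376b-5p and miR-376c-5p. At the same place but on opposite strands, miR-299a-5p and miR-299b-5p share 21 nt and the 3p pair shares 18 nt. Mature sequences of the members are 18 to 25 nt long, so CPM are compared between genes below without division by hairpin length.

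Most of the cluster was read in aged hippocampus. With at least 10 sense counts in both libraries as the limit of detection, 30 of the 39 members (76.9%) were detected, beside 17.4% of all miRNA genes. No sense count fell on 8 members in either library, beside 65.8% of all miRNA genes. The detected members had a median of 231 CPM (mean of both libraries), against 101.9 CPM for all 384 detected miRNA genes, and ran from 4.27 to 7757 CPM. A mean of 1000 CPM or more was reached by 9 members, and by 3.91% of all miRNA genes. High detection was not particular to the members. Of the 22 miRNA genes in the 200 kb before the window, 72.7% were detected, with a median of 592 CPM. The 5 genes that the rule leaves out were all detected, with a median of 341 CPM. These medians and shares describe the libraries and were not tested.

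The sum over the members was 44922 CPM in the first replicate and 40116 CPM in the other. As a share of counted miRNA reads that was 4.49% (Wilson 95% interval 4.47 to 4.51%) and 4.01% (4.00 to 4.03%), or 4.25% ± 0.340 (SD, n = 2). The intervals do not overlap, so the libraries differed by more than counting error. No molecular identifiers were counted and reads can be PCR copies of each other, so intervals and floors cover counting error only. In whole tissue, fewer cells of a type and less RNA per cell cannot be told apart, for this and every level below.

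**Figure D1:**
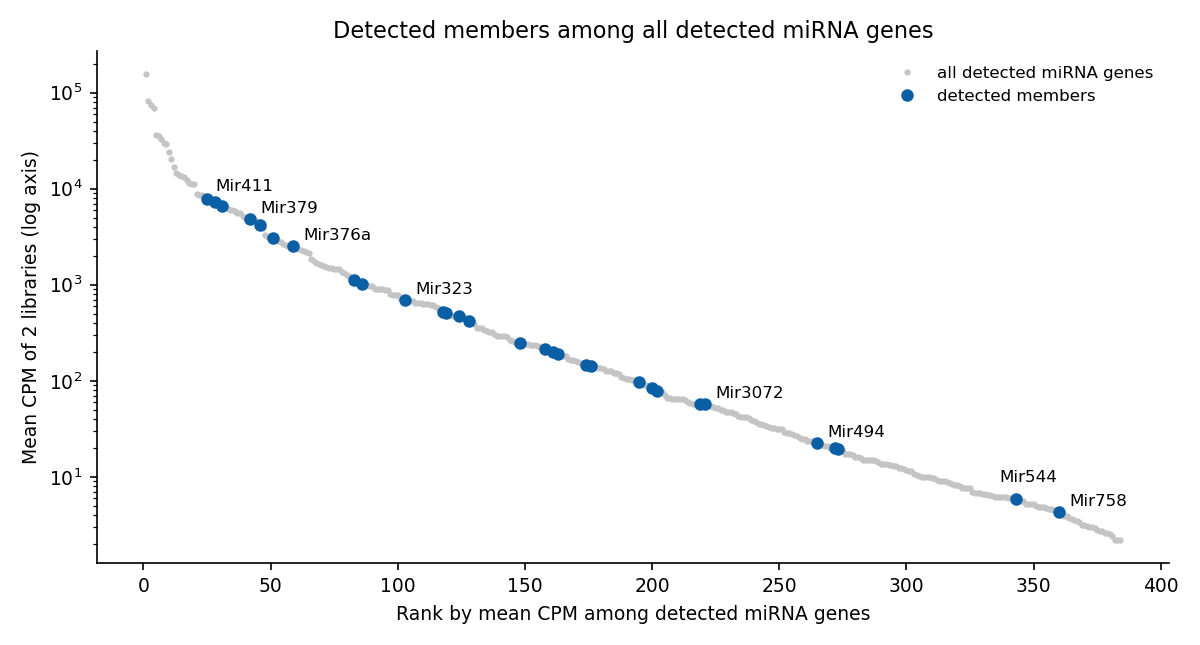
Mean CPM of the 2 libraries (log axis) against rank for the 384 detected miRNA genes, with detected members in blue and all detected genes in grey. The detected members run from Mir411 at 7757 CPM and rank 25 to Mir758 at 4.27 CPM, within a range over all detected genes of 2.22 to 156275 CPM.

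A few genes carried the sum. Mir411 and Mir382 together held 34.6% of the members' counts in replicate 1 and 35.8% in replicate 2. Adding Mir487b and Mir379 raised this to 64.8% and 59.1%, and the 10 most abundant members held 92.7% and 90.8%. In both libraries, most reads of the cluster thus came from few of its genes.

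Mir411 (ENSMUSG00000065477.3; chromosome 12, 109710175 to 109710256, plus strand, no annotated host) was the most abundant member and ranked 25 among all miRNA genes. It had 32680 counts (8695 CPM) in replicate 1 and 38172 counts (6818 CPM) in replicate 2, a mean of 7757 ± 1328 CPM (SD, n = 2 here and below). Mir382 (ENSMUSG00000065428.4; 109733771 to 109733846, plus strand, in an exon of Mirg) had 25670 counts (6830 CPM) and 42282 counts (7552 CPM), a mean of 7191 ± 510.4 CPM. Their mean levels differed by less than the spread of Mir411 between the libraries, so their order is not settled. Mir411 was higher in CPM in replicate 1 and Mir382 in replicate 2.

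Mir487b (ENSMUSG00000076219.1; 109727333 to 109727414, plus strand, no annotated host) had 28589 counts (7607 CPM) and 31735 counts (5668 CPM), a mean of 6638 ± 1371 CPM. Mir379 (ENSMUSG00000065498.4; 109709060 to 109709125, plus strand, no annotated host), the first gene of the row, had 22389 counts (5957 CPM) and 20545 counts (3669.5 CPM), a mean of 4813 ± 1618 CPM. Mir541 (ENSMUSG00000076052.1; 109742409 to 109742498, plus strand, in an intron of Mirg) had 14354 counts (3819 CPM) and 25974 counts (4639 CPM), a mean of 4229 ± 580 CPM. Replicate 1 was the higher library in CPM for Mir487b and Mir379 and the lower one for Mir541. Mir487b was the highest of these 3 in both libraries, while Mir379 exceeded Mir541 in replicate 1 and lay below it in replicate 2.

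Mir369 (ENSMUSG00000065561.2; 109743418 to 109743496, plus strand, in an exon of Mirg) had 10147 counts (2699.9 CPM) and 18878 counts (3372 CPM), a mean of 3036 ± 475 CPM. Its 3p form is known for binding the AU-rich element of the tumour necrosis factor messenger RNA. Mir376a (ENSMUSG00000105178.1; 109723781 to 109723848, plus strand, no annotated host) had 14114 counts (3755 CPM) and 7140 counts (1275 CPM), a mean of 2515 ± 1754 CPM. The hairpins of the mir-376 genes are known substrates of adenosine-to-inosine editing in brain, and how edited reads were counted is not given in the sources used here. Mir376a stood out among the abundant members for its spread, with replicate 2 far below replicate 1.

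Mir409 (ENSMUSG00000105849.1; 109743158 to 109743236, plus strand, in an intron of Mirg) had 3508 counts (933 CPM) and 7381 counts (1318 CPM), a mean of 1126 ± 272 CPM. Mir154 (ENSMUSG00000065448.2; 109738433 to 109738498, plus strand, in an intron of Mirg) had 2934 counts (781 CPM) and 7094 counts (1267 CPM), a mean of 1024 ± 344 CPM. Mir323 (ENSMUSG00000065617.1; 109712508 to 109712593, plus strand, no annotated host) had 2067 counts (550.0 CPM) and 4669 counts (834 CPM), a mean of 692 ± 201 CPM. All 3 were higher in CPM in replicate 2. Mir409 exceeded Mir154 in both libraries, though their means differed by less than the spread of either gene between the libraries. That difference in level was not tested.

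The other detected members were read along the row as follows, in CPM of replicates 1 and 2. Near the start, Mir299a had 89.9 and 196 CPM, Mir380 had 378 and 119.8 CPM, and Mir758 had 4.26 and 4.29 CPM from 16 and 24 counts. Mir380 is known for repressing the tumour suppressor Trp53, and Mir758 for repressing the cholesterol transporter Abca1. Mir494 had 20.2 and 24.5 CPM, beside Mir679 at 20.0 and 19.5 CPM and Mir1193 at 13.8 and 26.1 CPM. These 3 adjacent genes formed a stretch of low level, with at most 26.1 CPM in either library.

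Further along, Mir666 had 186 and 240.4 CPM, Mir543 had 196 and 203 CPM, and Mir667 had 288 and 553 CPM. The mir-376 neighbours of Mir376a had lower levels, with 512 and 428 CPM for Mir376c and 209 and 171 CPM for Mir376b, and Mir300 beside them had 439 and 572 CPM. All 3 mir-376 genes were higher in CPM in replicate 1, unlike Mir300. Between Mir487b and Mir382 lay Mir539 at 48.2 and 109 CPM and Mir544 at 8.78 and 3.04 CPM from 33 and 17 counts.

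At the far end, within Mirg, Mir668 had 507 and 529 CPM, Mir496a had 139.96 and 149 CPM, and Mir377, known for raising fibronectin in kidney mesangial cells, had 56.1 and 136 CPM. Mir412 had 56.9 and 57.7 CPM and Mir410, which gives the cluster its second name, had 83.0 and 85.0 CPM. Mir3072, the last gene of the window, had 37.8 and 76.1 CPM. Mir412 and Mir410 were thus nearly equal in the libraries in CPM, while Mir377 and Mir3072 were higher in replicate 2.

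The 9 members that were not detected fell into 2 kinds. On the plus strand, Mir654, Gm27379 and Mir453 had no count and Mir1197 had 0 and 3 counts. The limit that 0 counts set, taken as 3 counts, was 0.798 CPM in replicate 1 and 0.536 CPM in replicate 2. The other 5, Mir299b, Gm25750, Gm25252, Gm44322 and Gm24321, are all the minus-strand members, and each overlaps a detected plus-strand gene. Of the plus-strand members, 30 of 34 were detected, and of the minus-strand members 0 of 5.

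The minus-strand genes had no sense count, but their opposite-strand column held the reads of the partner gene. Gm25252 had 14114 and 7140 opposite-strand counts, the sense counts of Mir376a. The same equality held for Gm25750 with Mir380 (1420 and 671), Gm44322 with Mir539 (181 and 608) and Gm24321 with Mir409 (3508 and 7381). Mir299b had 338 and 1097 opposite-strand counts against 338 and 1098 sense counts of Mir299a. In these columns all counted reads therefore lay on the strand of the plus-strand gene. The limits above hold only for reads that fit 1 strand. The miR-299b-3p sequence printed above is the start of miR-299a-3p, so such a read fits both strands and 0 counts set no limit for Mir299b. Stretches that the other 4 pairs share between strands were not examined. In the unstranded column, the 5 plus-strand partners had 0 counts, apart from 1 count of Mir299a in replicate 2, so their levels exist only in the stranded counts.

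**Figure D2:**
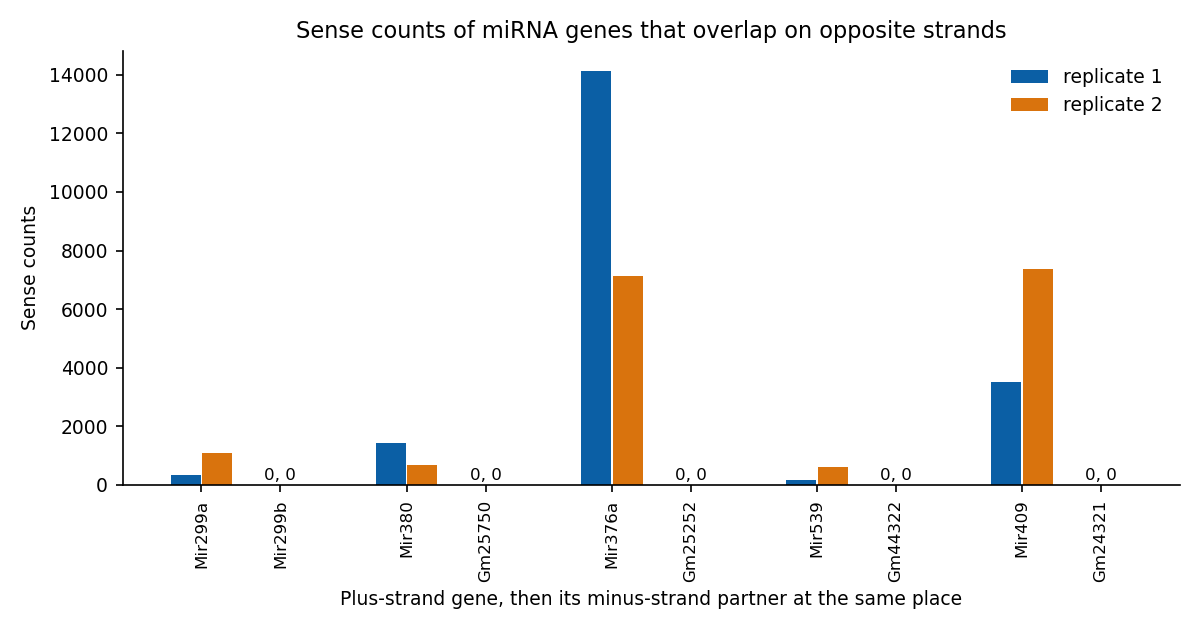
Sense counts (linear axis from 0) of the 5 pairs of members that overlap on opposite strands, with replicate 1 in blue and replicate 2 in orange. Every minus-strand gene had 0 counts in both libraries, beside 181 to 14114 counts for its plus-strand partner.

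Level showed little relation to position. Over all 39 members, log2(mean CPM + 1) against order along the plus strand gave a Pearson's r of 0.083 and a Spearman's rho of 0.047, and over the 30 detected members 0.045 and 0.003. The members share their libraries and in part their transcript, so these are descriptions without a test. The most abundant genes lay at both ends and in between. The first genes, from Mir379 to Mir758 without the silent Gm25750 (6 of 8 detected), held 15675 and 11642 CPM in replicates 1 and 2, or 34.9% and 29.0% of the members' counts. The block from Mir154 to Mir410 (8 of 8 of its plus-strand genes detected) held 8569 and 11025 CPM, or 19.1% and 27.5%.

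Annotated transcript structure divided the members as follows. The 7 members in exons of Mirg were all detected and summed to 10271 and 11807 CPM. Of the 5 members in its introns 4 were detected, with 5673 and 7374 CPM. The other 22 plus-strand members have no annotated host on their strand, and 19 of them were detected, with 28978 and 20935 CPM. Genes outside Mirg thus held more of the reads in both libraries, but they are also more numerous. The median mean CPM of detected members was 213 without a host, 96.2 in Mirg exons and 1075 in Mirg introns. Both Mirg groups had more summed CPM in replicate 2 and the group without a host more in replicate 1. The median log2 ratio per gene is another measure. On the TMM scale it was -0.17 for the Mirg exon members, 0.07 for the intron members and -0.31 for those without a host. On total counts it was 0.14, 0.39 and 0.01, so its sign turned with the scale for all but the intron members.

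**Figure D3:**
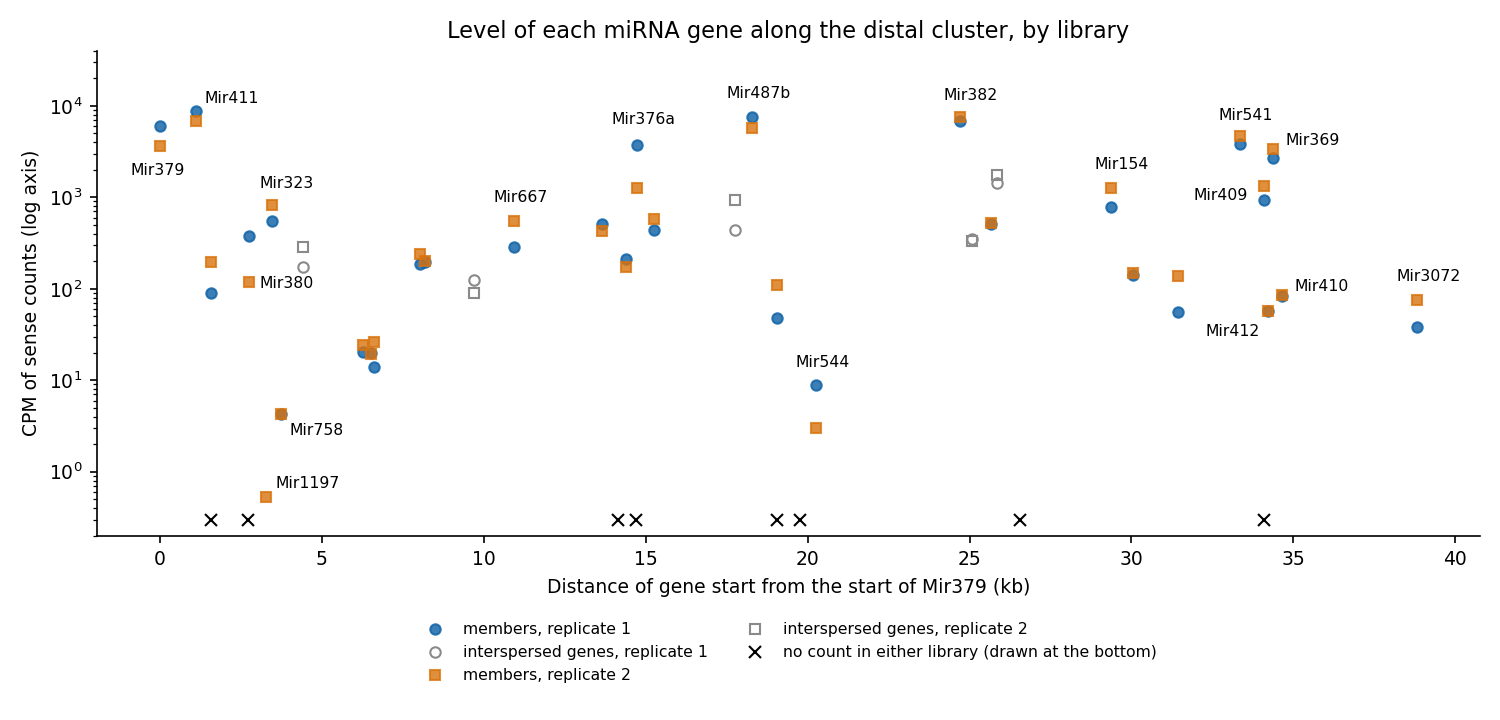
CPM of sense counts (log axis) of each miRNA gene against distance of its start from that of Mir379 in kb, with circles for replicate 1 and squares for replicate 2. Filled marks are members, open grey marks the 5 genes the rule leaves out, crosses the 8 members with no count in either library, and Mir1197 has a mark for replicate 2 only; members at the highest levels, up to 8695 CPM for Mir411 in replicate 1, occur at both ends and in between, and Mir758, Mir544 and Mir1197 lie under 10 CPM.

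Neighbouring genes often differed widely in level. Over a short stretch at the far end, Mir409 exceeded Mir412, whose start lies 131 nt on, by 19.6-fold in mean CPM. Mir369, 129 nt after Mir412, exceeded it by 53.0-fold, and Mir410, 297 nt after Mir369, lay 36.1-fold below Mir369. The order of these 4 genes was the same in both libraries, where Mir369 exceeded Mir412 by 47.4-fold and 58.4-fold. Among detected members near the start, the widest steps were from Mir323 to Mir758, 302 nt apart and 162-fold in mean CPM, and from Mir411 to Mir299a, 463 nt apart and 54.2-fold.

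Some close neighbours had like levels. Mir679 and Mir1193, with starts 94 nt apart, differed by 1.01-fold in mean CPM, although Mir679 was the higher by 1.44-fold in replicate 1 and Mir1193 by 1.34-fold in replicate 2. For Mir666 and Mir543, 173 nt apart, the difference in mean CPM was 1.07-fold. Across the 30 detected members, adjacent genes differed by a median of 2.31 on the log2(CPM + 1) scale, against 3.07 over all 435 pairs. Over all 39 members the order was the other way, with 5.57 for adjacent genes and 4.40 over all 741 pairs. In that count the 5 silent minus-strand genes each sit beside their detected partner.

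Some genes that share a seed differed widely in level and others did not. The counts do not separate the arms, so these are levels of genes and not of the seeds. Mir379 and Mir1193, whose 5p miRNAs share GGUAGAC, had 4813 ± 1618 and 20.0 ± 8.66 CPM. Mir379 and Mir411, whose 3p miRNAs share AUGUAAC, both ranked among the most abundant members. Mir376c and Mir376b, with UGGAUAU in their 5p miRNAs, had 470 ± 59.4 and 190.2 ± 26.8 CPM, and the ratio between them was 2.45-fold in replicate 1 and 2.50-fold in replicate 2. Of Mir496a and Mir453, with GGUUGCC, the former had 145 ± 6.75 CPM and the latter no count. Mir758 and Mir1197, with GGUUGAC, were both among the lowest, at 4.27 ± 0.0208 CPM and at 0 and 3 counts. Mir494 and Mir410, with GGUUGUC, had 22.3 ± 3.004 and 84.0 ± 1.42 CPM.

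Some hairpins share sequence with another hairpin, which matters because a read that fits several places is in no gene's count. Of all reads, 51.52% in replicate 1 and 46.66% in replicate 2 mapped to several places. Mir411 and Mir758 share a stretch of 21 nt, Mir376b and Mir376c share 31 nt, and Mir487b shares 20 nt with Mir376b. These 5 members summed to 17027 and 13089 CPM. None of their listed mature sequences was found whole in an annotated hairpin elsewhere. The longest stretch shared was 12 nt for Mir411, 13 nt for Mir758 and miR-487b-5p, and 18 nt for miR-376b-5p and miR-376c-5p. Shorter reads and arms not listed could still be lost, so these levels may be too low to an unknown degree. The doubt is more direct for the level and the ratio of Mir299a, whose 5p sequence shares 21 nt with that of Mir299b on the other strand. Mir376a, by contrast, shares at most 11 nt with an annotated hairpin elsewhere. Without the 5, the mean sum over members was 27461 CPM, with 27895 and 27027 CPM in the libraries.

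The libraries were then compared gene by gene. Each detected gene's counts were set against an exact two-sided binomial test whose expected share came from TMM-scaled library sizes, with Benjamini-Hochberg adjustment over all 384 detected genes at 0.05. This test compares the reads of these libraries and not conditions. It called 24 of the 30 detected members (80%), beside 65.1% of all detected genes. By direction, replicate 1 was the higher library for 15 (34.1% of all detected genes) and replicate 2 for 9 (31% of all detected genes). On the scale of total counts, which moves every log2 ratio of replicate 2 over replicate 1 up by 0.32 and the median over all detected genes from -0.01 to 0.31, 22 members were called, beside 70.6% of all detected genes. There 8 had more in replicate 1 and 14 in replicate 2, beside 19.8% and 50.8% of all detected genes. On both scales 17 members were called in the same direction, 8 higher in replicate 1 and 9 in replicate 2. As total counts only move ratios up, these are the 8 on total counts and the 9 on the TMM scale already given. The shares of all detected genes beside them are the 19.8% and 31% above. The agreement between the scales is no separate check. The count of calls shared by both scales was not made over all detected genes, so the 17 are not read as a result about the members.

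Members differed between libraries about as much as other genes. Their median absolute difference was 1.29-fold, against 1.36-fold over all detected genes, on the TMM scale. The biological coefficient of variation (edgeR common dispersion) was 35.3% for the detected members and 34.4% for all detected genes. The choroid plexus genes Mir204, Mir448 and Mir1298, which mark another cell type of the region, summed to 850 and 1495 CPM, and 3 of 3 were called higher in replicate 2. Of the neuronal list 8 of 8 detected genes were called on the TMM scale, 6 of them higher in replicate 1. Their median log2 ratio was -0.36 on that scale and -0.04 on total counts. With total counts the calls of this list split evenly, 4 toward each library, so its lean to replicate 1 depended on the scale. Endothelial Mir126a, at 11853 and 10726 CPM, had a log2 ratio of -0.46 on the TMM scale and -0.14 on total counts. The epithelial list (5 of 6 detected), at 124 and 207 CPM, had 2 genes called on the TMM scale and 4 on total counts, all with more in replicate 2. The part of these cell types in the members' differences was not tested.

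Differences of at least 2-fold on the TMM scale were called for 4 of the 30 detected members, a share near the 14.8% of all 384 detected genes. All 4 were higher in replicate 1, and no share over all detected genes was computed by direction. Mir380, with 1420 and 671 counts, was 3.93-fold higher in replicate 1 (95% counting interval 3.58 to 4.31; exact binomial adjusted p = 4.5e-204). Mir376a, with 14114 and 7140 counts, was 3.67-fold higher (3.56 to 3.77). Mir544, with only 33 and 17 counts, was 3.60-fold higher (1.95 to 6.89; exact binomial adjusted p = 2.0e-05). Mir379 was 2.02-fold higher (1.98 to 2.06). All 4 remained higher in replicate 1 on total counts, where the log2 ratio was -1.66 for Mir380, -1.56 for Mir376a, -1.53 for Mir544 and -0.70 for Mir379. The replicate 1 library thus held more reads of these genes than its depth accounts for on either scale. That all differences of at least 2-fold lay in 1 direction held on the TMM scale only. On total counts Mir379 was under 2-fold, while Mir377, Mir539, Mir299a and Mir3072 were more than 2-fold higher in replicate 2. Their log2 ratios there were 1.28, 1.17, 1.12 and 1.01.

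Other members called higher in replicate 1 included 2 of the most abundant. Mir487b was 1.67-fold higher (1.64 to 1.70) and Mir411 was 1.59-fold higher (1.57 to 1.61), and both kept that direction on total counts with log2 ratios of -0.42 and -0.35. Mir376c and Mir376b were 1.49-fold and 1.52-fold higher, so all 3 mir-376 genes were called in this direction on both scales. The sum of the 3 was 4476 CPM in replicate 1 and 1874 CPM in replicate 2, most of it from Mir376a.

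Members called higher in replicate 2 ranged in mean level from 20.0 CPM for Mir1193 to 1126 CPM for Mir409. Mir377, with 211 and 763 counts, was 1.95-fold higher (1.67 to 2.28; exact binomial adjusted p = 4.2e-19). Mir539, with 181 and 608 counts, was 1.81-fold higher (1.53 to 2.15; exact binomial adjusted p = 7.2e-13). Mir299a followed at 1.75-fold, Mir3072 at 1.62-fold, Mir667 at 1.54-fold and Mir1193 at 1.51-fold. The abundant genes in this direction had smaller differences, with 1.30-fold for Mir154 (1.25 to 1.36), 1.22-fold for Mir323 (1.16 to 1.28) and 1.13-fold for Mir409 (1.09 to 1.18). The call of these 9 genes was the same on total counts. That scale moves every ratio toward replicate 2, so the agreement is no separate check.

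For several members the direction depended on the scale. Mir382 was 1.13-fold higher in replicate 1 on the TMM scale (log2 ratio -0.17) and was called higher in replicate 2 on total counts (0.14). Mir541 was 1.03-fold higher in replicate 1 (exact binomial adjusted p = 0.026) and was called higher in replicate 2 on total counts (0.28); with DESeq2 size factors it was not called. Mir543, Mir668, Mir496a, Mir412 and Mir410 were called higher in replicate 1 on the TMM scale, by 1.17-fold to 1.23-fold, but had log2 ratios of 0.02 to 0.10 on total counts and were not called there. Mir369, Mir300, Mir666, Mir494, Mir679 and Mir758 were not called on the TMM scale, with log2 ratios from -0.35 for Mir679 to 0.07 for Mir300. On total counts Mir369, Mir300 and Mir666 were called, each with more in replicate 2 (log2 ratios of 0.32, 0.38 and 0.37). The interval for Mir369 ran from -0.03 to 0.04, and that for Mir758, at 16 and 24 counts, from -1.28 to 0.70, so a difference of up to that size was not detectable at its depth.

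**Figure D4:**
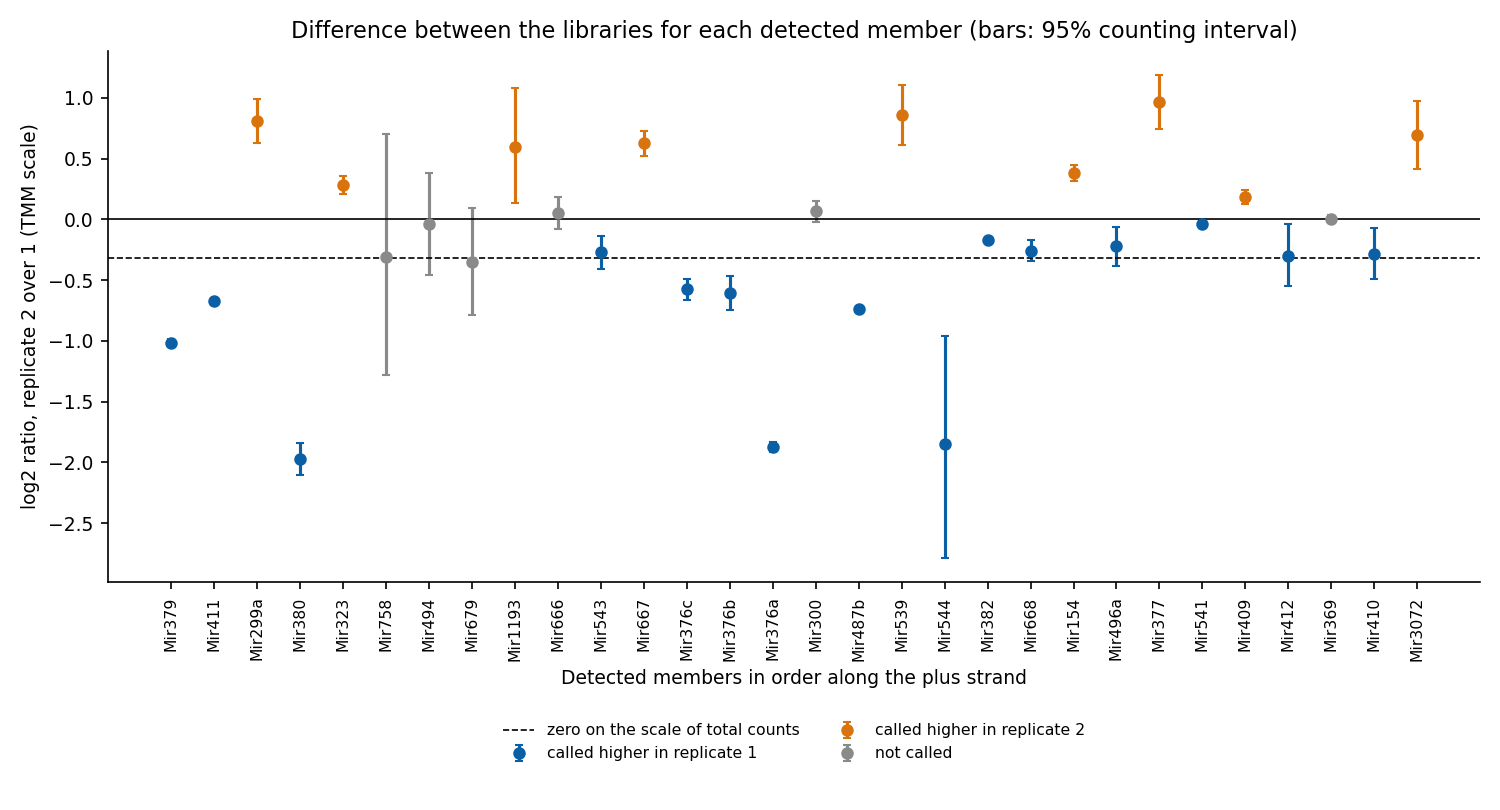
Log2 ratio of replicate 2 over replicate 1 on the TMM scale for the 30 detected members in order along the plus strand, with 95% counting intervals as bars; colours mark the direction of the call and the dashed line is 0 on the scale of total counts. Mir380, Mir376a and Mir544 lie between -1.97 and -1.85, while members called higher in replicate 2 reach 0.96 for Mir377, and both directions occur along the whole row.

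Neighbours were not clearly more alike than other pairs in their difference between libraries. Adjacent detected members differed by a median of 0.81 in log2 ratio, against 0.67 over all 435 pairs, and by 0.65 with the 5 genes outside the rule put back. Some neighbours had like ratios, such as Mir376c and Mir376b at -0.58 and -0.60. Others did not: Mir411, at -0.67, lies 463 nt before Mir299a at 0.81, and Mir487b, at -0.74, lies 796 nt before Mir539 at 0.86. On total counts both pairs still had opposite signs, with -0.35 and 1.12 for the first and -0.42 and 1.17 for the second.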

How the data were processed

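The deposited tables hold raw read counts per miRNA gene, whole numbers without normalization, made by the authors on mm10 (per the labels) with GENCODE M21 (per the deposited text). Which aligner and counter were used is not given in the sources used here. The stranded count column with the larger total was taken as sense; the other held 287729 and 425273 counts. Library sizes and tests leave out the 4 summary lines, in which unmapped reads were 9.53% and 14.4%, and reads outside annotated features 3.47% and 4.24%, of 10594081 and 16131923 reads in replicates 1 and 2.

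For CPM, a gene's sense counts were divided by those of all miRNA genes and multiplied by 1000000. Positions, strands and host genes came from GENCODE M21, sequences from RefSeq, both on mm10 (GRCm38). Sequence sharing was sought among annotated hairpins only. A single group allows no contrast of conditions. TMM factors and dispersion came from edgeR 4.0.16 in R 4.3.3, alternative size factors from DESeq2 1.42.0, and binomial tests from SciPy 1.17.1. The test was checked on simulated counts with counting error only. That check does not cover the wider spread between these libraries. Full statistics are given for the 10 most abundant members and the 5 called members with the largest ratio and at least 100 counts in each library; Mir544 and the neighbouring pairs were named after their values were seen. The members and lists were chosen with earlier results of these data known. Alternatives were other detection limits, unstranded counts, other scalings and tests, other pseudocounts than 1, members left out and each replicate left out. Orders over plus-strand members, neighbours among detected members and all comparisons with GC content were added after seeing the data.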

Additional observations from a re-analysis of the deposited data

How the results depend on the processing

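Without replicate 1 or replicate 2 in turn, 30 members were detected each time, the members' sum was 40116 to 44922 CPM, the median detected member 221.6 to 248.5 CPM, the Pearson coefficient of level on order 0.070 to 0.098, the Spearman coefficient 0.054 to 0.059 and the median difference of adjacent members 5.20 to 5.58. The sum was 27461 CPM without members that share 20 nt. The median was 334.6 CPM with detection at 50 counts and 143 CPM with no limit. The Pearson coefficient was 0.115 on distance in bases, 0.045 over detected members, 0.164 without members that share 20 nt, 0.109 with unstranded counts and 0.053 over plus-strand members. The Spearman coefficient was 0.0029 over detected members, 0.070 with the 5 genes outside the rule put back, 0.130 without members that share 20 nt, 0.053 with unstranded counts and 0.017 over plus-strand members. The median difference of adjacent members was 3.73 with a pseudocount of 10, 5.16 with the 5 genes put back and 2.31 over detected members. Total counts gave 8 members called higher in replicate 1 and 14 in replicate 2, and turned the log2 ratio to 0.0099 for Mir758, 0.28 for Mir494, 0.046 for Mir543, 0.14 for Mir382, 0.060 for Mir668, 0.10 for Mir496a, 0.28 for Mir541, 0.019 for Mir412 and 0.034 for Mir410. Total calls were 22 to 24 under the other scalings, filters and the chi-square test, and 18 with unstranded counts. There the 5 members overlapped on the other strand have no ratio, with 0 counts apart from 1 of Mir299a, and Mir541 was not called. The median difference in log2 ratio of adjacent members was 0.65 with the 5 genes put back. The cause of the other changes was not tested. No paired analysis was possible because there is 1 group. Depth limits Mir758 and Mir544, which rest on 16 to 33 counts.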

Other observations

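Members rich in G and C had, on the TMM scale, ratios of replicate 2 over replicate 1 above 0 more often than members poor in them. Of the 9 detected members with hairpins of 50% GC or more, among them Mir3072 (72.3%), Mir666 (64.6%) and Mir667 (62.0%), 6 had a log2 ratio above 0, with a median of 0.18. Of the 15 at 40 to 50%, 5 did (median -0.27), and of the 6 under 40%, among them Mir376c (29.1%) and Mir376a (32.4%), 1 did (median -0.37). Over all detected miRNA genes the same classes had 124 of 214, 53 of 134 and 12 of 36 genes above 0, with medians of 0.08, -0.11 and -0.26. Across the 30 detected members, hairpin GC and log2 ratio had a Pearson's r of 0.31 and a Spearman's rho of 0.20, and across all 384 detected genes 0.20 and 0.24. Genes share the libraries and are not independent replicates, and on total counts every ratio is 0.32 higher. Without Mir376a and Mir380 the members' coefficients were 0.23 and 0.13, and with the GC of the mature sequences in place of the hairpins 0.39 and 0.34. Mir539, at 33.8% GC and 0.86, and Mir377, at 41.2% and 0.96, went the other way. This comparison was chosen after seeing the data.

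Some seeds of the cluster also occur elsewhere in the genome. In RefSeq the seed AUAUAAC of miR-410-3p is shared with miR-344d-3p and miR-344e-3p, AGUAGAC of miR-411-5p with miR-7229-5p, and AGGUCAC of miR-1193-3p with miR-370-5p of the same imprinted domain. The counts per gene do not show which arm was read, so no level can be given for these seeds.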
